A study of Mus musculus with 10 samples.

Results

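The genes described here are 9 of retinoid metabolism and of the retinoic acid receptors: Retsat, Rdh10, Aldh1a1, Aldh1a2, Aldh1a3, Aldh1a7, Rara, Rarb and Rarg. They were found by symbol among the 39017 genes of the count table, each symbol matched 1 row, and all 9 passed the filter on low counts that left 16216 genes for testing. RNA was sequenced from 10 lung tumours of male C57BL/6 mice, 5 of the control genotype KP and 5 of KPG1, which carries in addition the floxed gene Slc2a1 of the glucose transporter Glut1. The question was what the loss of this transporter does to KP tumours. In both groups an adenovirus with Cre recombinase under the SPC promoter, which is active in alveolar type 2 cells, was given into the trachea, and tumours were taken 18 weeks and 6 days later. KP mice carry the engineered alleles of a common lung adenocarcinoma model, and KPG1 mice share them. KPG1 mice are labelled fl/fl for the transporter gene. Controls are labelled fl/wt in the genotype field and wild type in another field, so a control may already have lacked 1 copy in its tumour cells. Each library held the cells left of a macrodissected tumour after cells with the leukocyte marker CD45 had been removed, so endothelial, stromal and normal lung cells could remain. No label states that the tumours came from separate mice, and the p-values below measure the spread between these samples only.

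Retinoids are vitamin A and its derivatives. Retinol is taken up from blood, stored as esters, and oxidised to retinaldehyde by enzymes such as Rdh10, after which retinaldehyde dehydrogenases of the Aldh1a family oxidise it to retinoic acid in a step that cannot be reversed. Retinoic acid binds the nuclear receptors Rara, Rarb and Rarg, which sit on DNA as pairs with an RXR receptor and switch from corepressors to coactivators when bound, and enzymes of the Cyp26 family then degrade it. In the lung this pathway is known for its part in bud outgrowth and in the formation of alveoli.

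Libraries held from 32427029 to 49534284 counts. Levels are given as CPM, a gene's counts relative to the total of its library, which TMM factors rescaled to make libraries comparable. Slc2a1 stood at 78.8, 127, 123, 109 and 71.7 CPM in KP 1 to KP 5 and at 47.3, 66.8, 40.8, 51.3 and 44.3 CPM in KPG1 1 to KPG1 5. Every KPG1 tumour lay below every KP tumour, and the KPG1 mean was 49.2% of the KP mean (two-sided exact permutation test of the log2 levels, p = 0.00794, the lowest value possible with groups of this size). Fitted with all genes, its log2 difference was -1.01 ± 0.20 (SE) with an adjusted p of 0.0675 (limma), above the threshold of 0.05. The 8 alveolar type 2 markers checked were each fitted higher in KPG1, 3 of them at an unadjusted p under 0.05 and 0 at the adjusted threshold. Among all genes tested 52.7% were fitted higher, and 11.6% had an unadjusted p under 0.05 in either direction (limma). Their summed level ran from 17793 to 60116 CPM in KP and from 46775 to 84991.5 CPM in KPG1, and the lowest sums were those of KP 1 with 17793 CPM and KP 4 with 26109 CPM. All 8 endothelial markers and all 7 fibroblast markers tested were also fitted higher, with 0 and 1 of them at an unadjusted p under 0.05. Summed levels ran from 305 to 1048 CPM in KP and from 470 to 1498 CPM in KPG1 for the endothelial list. They ran from 116 to 285 CPM in KP and from 184 to 314 CPM in KPG1 for the fibroblast list. The 8 leukocyte markers summed to between 48.5 and 86.8 CPM in KP and between 33.5 and 72.2 CPM in KPG1. Of the 7 leukocyte markers tested 2 were fitted higher and 5 lower, 1 of the latter at an unadjusted p under 0.05 (limma). No marker of these lists was at 0 in all libraries. In bulk tumours, fewer cells of a type and less RNA per cell cannot be told apart.

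All 9 retinoid genes had counts in all 10 tumours, those of Rarb being uncertain for a reason given below. Per kilobase of exon, so that genes of different length can be set side by side, the highest mean over both groups was that of Aldh1a7, with 31.8 ± 12.2 CPM per kilobase (mean and SD, n = 10), and the lowest was that of the receptor Rarb, with 0.607 ± 0.180. Aldh1a7, a rodent gene closely related to Aldh1a1, exceeded Retsat, the next in the order, in 10 of 10 tumours. It was exceeded by Aldh1a3 in KP 1 (26.7 against 15.4 CPM per kilobase) and by Aldh1a1 in KP 4 (31.5 against 24.3). By group, Aldh1a7 averaged 24.3 CPM per kilobase in KP and 39.2 in KPG1, and Aldh1a3 15.4 and 3.44. Retsat reached 18.2 ± 5.97, Rarg 16.3 ± 2.78, Aldh1a1 11.3 ± 7.78, Aldh1a3 9.42 ± 9.54 and Rdh10 8.49 ± 2.76 CPM per kilobase. These middle ranks were not separated beyond the spread between tumours: Retsat was above Rarg in 6, Rarg above Aldh1a1 in 8, Aldh1a1 above Aldh1a3 in 7 and Aldh1a3 above Rdh10 in 4 of 10 tumours. Rara, at 4.77 ± 0.65 CPM per kilobase, was below Rdh10 in 9 tumours and above Aldh1a2, at 2.38 ± 1.19, in 9. Rarb was below Aldh1a2 in 10 of 10. With the length of the longest principal transcript in place of all exon bases, Aldh1a7 stayed first and Rarb last in the mean over both groups, while Aldh1a1 moved up to 23.6 CPM per kilobase and the second place. In KP alone the mean of Aldh1a1 was then 28.9 CPM per kilobase, above that of Aldh1a7.

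**Figure D1:**
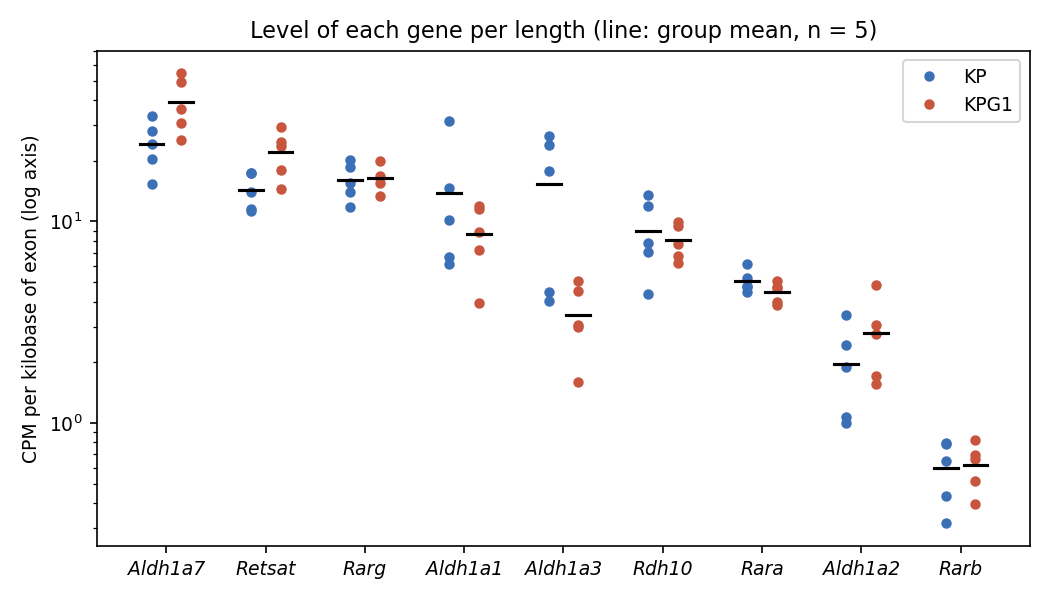
Level of each retinoid gene in CPM per kilobase of exon, on a log axis, with 1 point per tumour (KP blue, KPG1 red) and a line at the mean of each group of 5. Aldh1a7 has the highest mean over all tumours and Rarb the lowest, and the points of Aldh1a3 and Aldh1a1 spread the most within a group.

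The receptors Rara, Rarg and Rarb thus covered a wide range of levels, and they also differed in their spread between tumours. After the group means were removed, the SD of the log2 level was 0.175 for Rara, smaller than that of all but 9.7% of the genes tested. It was 0.265 for Rarg and 0.492 for Rarb, against a median of 0.350 over all genes tested. At the other end stood Aldh1a3 with an SD of 1.05, higher than 93.9% of genes, and Aldh1a1 with 0.822, higher than 88.2%. Within the KP group alone, the highest tumour held 6.59 times the Aldh1a3 level of the lowest, and 5.11 times the Aldh1a1 level.

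A stretch of 3 promoters is shown. Rarb is itself a known target of retinoic acid, through a pair of receptor motifs in its promoter, and Aldh1a1 and Aldh1a7 are near copies. How reads were shared between them depends on their transcripts, which are compared below. The sequences are those of RefSeq on build GRCm38.p6, the 100 bases before the start of transcription, 5′ to 3′ on the strand of the gene. In Rarb (chr14:16575477-16575576, minus strand) capitals mark the paired motifs of a direct repeat with a spacer of 5 bases.
Rarb: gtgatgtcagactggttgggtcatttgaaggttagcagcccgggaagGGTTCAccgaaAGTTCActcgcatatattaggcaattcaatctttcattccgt
Of 2 starts listed for Aldh1a1 the one at the higher position is used. In Aldh1a1 (chr19:20601868-20601967, plus strand) and Aldh1a7 (chr19:20727557-20727656, minus strand) capitals mark the 6 of 100 positions at which they differ.
Aldh1a1: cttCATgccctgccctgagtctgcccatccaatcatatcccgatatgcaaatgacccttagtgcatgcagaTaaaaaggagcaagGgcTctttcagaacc
Aldh1a7: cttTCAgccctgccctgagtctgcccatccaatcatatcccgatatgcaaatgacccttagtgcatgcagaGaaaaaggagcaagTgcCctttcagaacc

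The motifs searched were AGGTCA with its known variants, of which the first is AGTTCA, the next is GGGTCA and the last is GGTTCA, in pairs on the same strand with a spacer of 1, 2 or 5 bases, on both strands, over windows from 250 bases before to 50 bases after a start. Aldh1a3 and Rdh10 had 0 such windows and were not searched, and the other members had 12. A repeat with a spacer of 5 bases was found in 1 of these 12, that of Rarb, where it read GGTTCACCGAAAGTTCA from base -53 to base -37, and in 32 of all 32851 windows (0.0974%). Repeats with a spacer of 1 or 2 bases were in 0 of the 12 windows, against 0.222% and 0.268% of all windows. A match of letters is a description and not evidence of binding.

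The transcripts of Aldh1a1 and Aldh1a7 were 89.9% identical over 2012 aligned bases. Transcripts of the other pairs among the 4 Aldh1a genes were between 70.1% and 72.1% identical over the aligned part. Reads had 85 bases, and of all windows of that length 27 of 2274 in the main Aldh1a1 transcript (1.19%) and 27 of 1982 in that of Aldh1a7 (1.36%) also occurred in the other gene, so few reads could not be assigned to 1 of them. Both genes lie on chromosome 19 of build mm10, Aldh1a1 at 20492715 to 20643465 on the plus strand and Aldh1a7 at 20692953 to 20727562 on the minus strand. Rarb, at 16430839 to 16819156 on the minus strand of chromosome 14, overlaps Top2b on the opposite strand, with which it shares 1793 exon bases. Of the 3024 windows of 85 bases in the main Rarb transcript, 1550 (51.3%) also occurred in Top2b on either strand. Top2b, a topoisomerase, held 5416 to 12480 counts a library and Rarb 62 to 191, and whether the counting used strand is not given in the sources used here, so the Rarb values are uncertain. Retsat, at 72598475 to 72608425 on the plus strand of chromosome 6, shares 650 exon bases with the opposite gene Gm45053. The other members lie on chromosome 1 (Rdh10, 16105774 to 16133734), 7 (Aldh1a3, 66390890 to 66427517), 9 (Aldh1a2, 71215789 to 71296243), 11 (Rara, 98927818 to 98974942) and 15 (Rarg, 102234938 to 102257517), with 0 exon bases shared with another gene.

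Between the genotypes, 3 of the 9 genes differed at an unadjusted p under 0.05: Retsat and Aldh1a7 were fitted higher in KPG1, and Aldh1a3 lower. The share, 33.3% of the members, stood beside 11.6% of all genes tested. The members were chosen with earlier results of these tumours known, so this share is a description and not evidence. At the adjusted threshold 0 of 9 passed (limma-voom), as against 0.173% of all genes, 28 in number. DESeq2 passed 1 of 9, Aldh1a3, and 3.46% of all genes it tested. In 0 of 9 genes were the groups free of overlap, against 2.81% of all genes. Of the 9, 5 were fitted higher in KPG1 and 4 lower, with a median log2 difference of 0.052 beside 0.021 over all genes, while the median size of the difference regardless of sign was 0.49 beside 0.21. The size has the same limit as the share. The median SD within groups was larger too, at 0.492 for the members beside 0.350 over all genes.

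**Figure D2:**
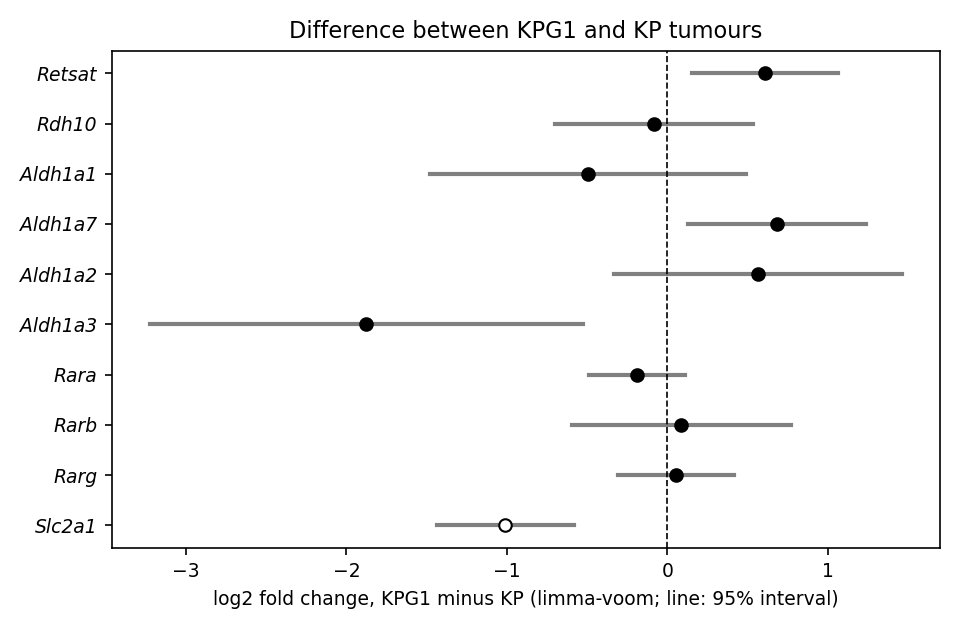
Fitted log2 difference of each gene, KPG1 minus KP, from limma-voom, with its 95% interval as a line; the open point is Slc2a1, the deleted gene, and the dashed line marks no difference. The intervals of Retsat, Aldh1a7 and Aldh1a3 lie to one side of 0, and those of the other 6 retinoid genes cross it.

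Retsat, the enzyme that saturates a double bond of retinol, stood at 40.0, 61.9, 61.5, 41.0 and 49.6 CPM in KP 1 to KP 5 and at 104, 87.5, 83.7, 64.0 and 51.4 CPM in KPG1 1 to KPG1 5. A group of 4 KPG1 tumours lay above every KP tumour, and KPG1 5 lay inside the KP range. On the log2 scale Retsat differed by 0.61 ± 0.21 (SE), a 1.52-fold higher level, with an interval from 0.15 to 1.06, an unadjusted p of 0.0135 and an adjusted p of 0.301 (limma). The lowest Retsat levels were in KP 1 and KP 4, the tumours with the lowest sums of alveolar type 2 markers. The highest was in KPG1 1, which had the highest sum. Among the other KPG1 tumours, KPG1 3 had the lowest sum of that group, 46775 CPM, and Retsat at 83.7 CPM. KPG1 5 had a sum of 60032 CPM and the lowest Retsat level of the group, 51.4 CPM. The part of this marker level in the difference was not tested. Leaving out KP 1 gave a log2 difference of 0.53, and leaving out KP 4 also gave 0.53.

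Rdh10, which carries out the oxidation of retinol to retinaldehyde, ran from 18.2 to 56.3 CPM in KP and from 25.8 to 41.4 CPM in KPG1. The KPG1 range lay inside the KP range. Its log2 difference was -0.086 ± 0.28 (SE), with an interval from -0.70 to 0.53 and an adjusted p of 0.932 (limma).

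Aldh1a3, one of the retinaldehyde dehydrogenases, stood at 123, 20.7, 82.6, 110.5 and 18.7 CPM in KP 1 to KP 5 and at 7.36, 13.8, 23.4, 20.8 and 14.2 CPM in KPG1 1 to KPG1 5. KP 1, KP 3 and KP 4 lay above every KPG1 tumour, while KP 2 and KP 5 lay among them, so that the control group itself fell into high and low tumours. On the log2 scale the difference was -1.88 ± 0.62 (SE), a level 0.273 times that of KP, with an interval from -3.23 to -0.53, an unadjusted p of 0.0108 and an adjusted p of 0.275 (limma). DESeq2 gave -2.18 with an adjusted p of 0.00148, and edgeR's quasi-likelihood test gave an adjusted p of 0.146; over all 19 alternatives it ran from 0.00148 to 0.607. The highest Aldh1a3 levels were in KP 1 and KP 4, which had the lowest sums of alveolar type 2 markers. The lowest was in KPG1 1, which had the highest sum, so that the order of tumours at both ends was the reverse of that for Retsat. Between these ends, KP 3 had a sum of 54513 CPM and Aldh1a3 at 82.6 CPM. KP 2 had a sum of 58700 CPM and Aldh1a3 at 20.7 CPM. The part of this marker level in the difference was not tested. Leaving out KP 1 gave a log2 difference of -1.58, leaving out KP 4 gave -1.61, and leaving out KP 5, a low control tumour, gave -2.27 with an adjusted p of 0.0658.

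Aldh1a7 stood at 31.7, 58.4, 68.9, 50.2 and 42.2 CPM in KP 1 to KP 5 and at 112, 63.5, 52.5, 74.5 and 101.7 CPM in KPG1 1 to KPG1 5. KPG1 1, KPG1 4 and KPG1 5 lay above every KP tumour, and KPG1 2 and KPG1 3 lay inside the KP range. The log2 difference was 0.68 ± 0.25 (SE), a 1.61-fold higher level, with an interval from 0.13 to 1.24, an unadjusted p of 0.0197 and an adjusted p of 0.333 (limma). Both Aldh1a7 and Retsat belong to a panel of bile acid genes shown in the study and picked in part from the same tumours, so their direction is not independent evidence.

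Aldh1a1, which makes retinoic acid and is a marker of several progenitor cells, stood at 30.4, 72.4, 50.1, 155 and 32.9 CPM in KP 1 to KP 5 and at 59.2, 43.6, 19.3, 35.7 and 56.8 CPM in KPG1 1 to KPG1 5. KP 4 alone was far above the rest, and 3 KP tumours lay inside the KPG1 range. The log2 difference was -0.49 ± 0.45 (SE), with an interval from -1.48 to 0.49 and an adjusted p of 0.7099 (limma). Without KP 4 it was -0.12, and it was 0.39 once the sample numbers found in the titles entered the fit as a covariate. All KP tumours but KP 5 have a higher sample number than every KPG1 tumour, so this covariate largely follows genotype. KP 4 was also the tumour with the second lowest sum of alveolar type 2 markers. KP 1, with the lowest sum, had the lowest Aldh1a1 level of the KP group, at 30.4 CPM. The part of this marker level in the Aldh1a1 values was not tested.

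Aldh1a2, known as the main source of retinoic acid in mesenchyme and mesothelium, had the lowest level of the 4 Aldh1a genes, with 96 to 502 counts a library. It stood at 7.75, 4.27, 5.50, 2.27 and 2.43 CPM in KP 1 to KP 5 and at 10.97, 3.85, 6.23, 6.97 and 3.54 CPM in KPG1 1 to KPG1 5. The groups overlapped, and the log2 difference was 0.56 ± 0.41 (SE), with an interval from -0.33 to 1.46 and an adjusted p of 0.629 (limma). The fibroblast markers given above were fitted higher as well. Of the 6 mesothelial markers 2 could be tested, and both were fitted lower, with adjusted p-values of 0.594 for Msln and 0.787 for Upk3b (limma). The summed level of the mesothelial list ran from 79.7 to 319 CPM in KP and from 85.8 to 243 CPM in KPG1. The part of either list in the Aldh1a2 values was not tested.

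**Figure D3:**
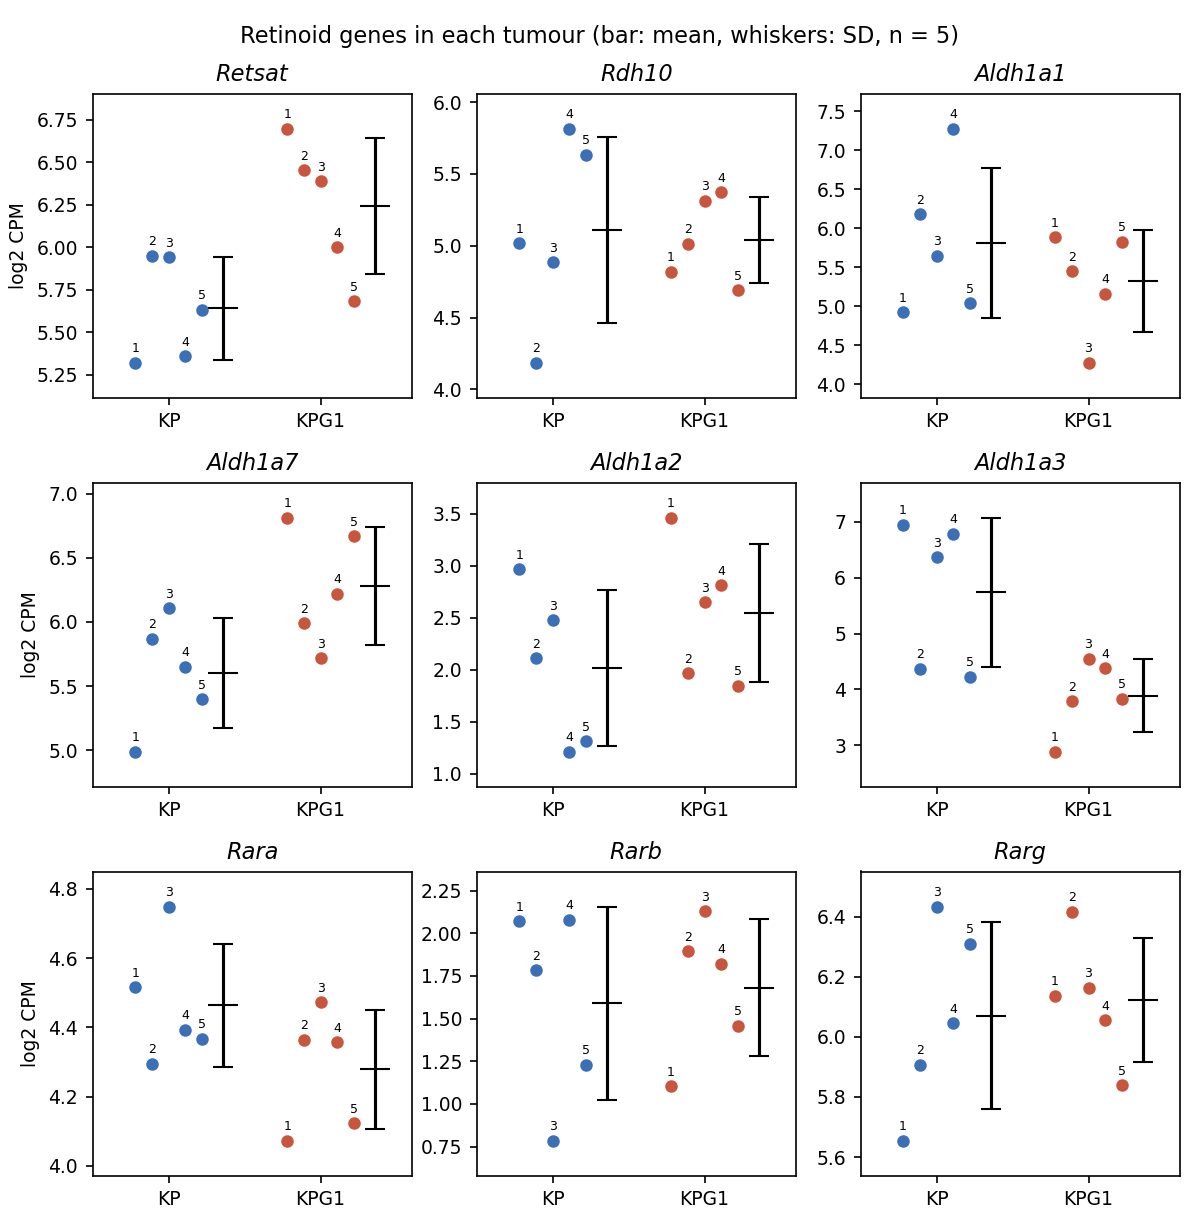
Log2 CPM of each retinoid gene in each tumour, numbered 1 to 5 within a group (KP blue, KPG1 red), with the group mean and SD as a bar and whiskers to the right of the points; each panel has its own vertical range, which does not start at 0. In the Retsat panel 4 KPG1 tumours lie above all KP tumours, in the Aldh1a3 panel KP 1, KP 3 and KP 4 lie above all KPG1 tumours, and in the panels of Rara, Rarb and Rarg the groups overlap.

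The 4 Aldh1a genes together did not show a group difference beyond the spread. Their sum is one of RNA levels, and the activity of each enzyme on retinaldehyde was not measured. Their summed level per kilobase was 51.6, 49.3, 63.8, 80.7 and 32.2 CPM in KP 1 to KP 5 and 72.8, 44.3, 37.1, 50.9 and 65.4 CPM in KPG1 1 to KPG1 5. Group means, 55.5 ± 18.0 (SD, n = 5) and 54.1 ± 14.8 (SD, n = 5), lay well within each other's spread. The makeup of the sum was another matter. Aldh1a7 supplied 29.8%, 57.3%, 52.3%, 30.1% and 63.4% of it in KP 1 to KP 5 and 74.7%, 69.5%, 68.4%, 70.9% and 75.3% in KPG1 1 to KPG1 5. All KPG1 tumours were above all KP tumours in this share, and the KPG1 shares lay much closer to each other, with an SD of 3.09 percentage points beside 15.7 in KP. The lowest shares were those of KP 1 and KP 4, the tumours with the lowest sums of alveolar type 2 markers, and the other 3 KP tumours lay between 52.3% and 63.4%, still below every KPG1 tumour. The part of this marker level in the share was not tested.

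Aldh1a3 supplied 51.7%, 9.09%, 28.0%, 29.7% and 12.6% of the sum in KP 1 to KP 5 and 2.19%, 6.74%, 13.6%, 8.87% and 4.71% in KPG1 1 to KPG1 5. Here the groups overlapped, since KP 2 and KP 5 had shares below that of KPG1 3. Aldh1a1 made up 23.5% ± 10.9 (SD, n = 5) of the sum in KP and 15.8% ± 3.57 (SD, n = 5) in KPG1, and Aldh1a2 3.77% ± 1.92 (SD, n = 5) and 5.27% ± 2.09 (SD, n = 5). Set against Aldh1a1 alone, Aldh1a7 held 71.4%, 65.8%, 76.7%, 43.6% and 75.4% of the level of the pair in KP 1 to KP 5 and 81.9%, 77.7%, 86.6%, 83.3% and 81.0% in KPG1 1 to KPG1 5. The groups did not overlap, by a margin of about 1 percentage point between KP 3 and KPG1 2, and the means differed by 15.5 percentage points, or by 9.79 without KP 4. All these shares depend on the length used. Aldh1a1 has 4937 exon bases but 2358 in its longest principal transcript, and Aldh1a7 has 2066 in both. With transcript length every Aldh1a7 share would be lower, and the means of the pair share differed by 18.9 percentage points. The shares were formed from genes whose results were known, so they are given as a description, with no test. When the counts of Aldh1a1 and Aldh1a7 were added into 1 gene before the fit, the log2 difference was 0.13 ± 0.33 (SE) with an adjusted p of 0.912 (limma).

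**Figure D4:**
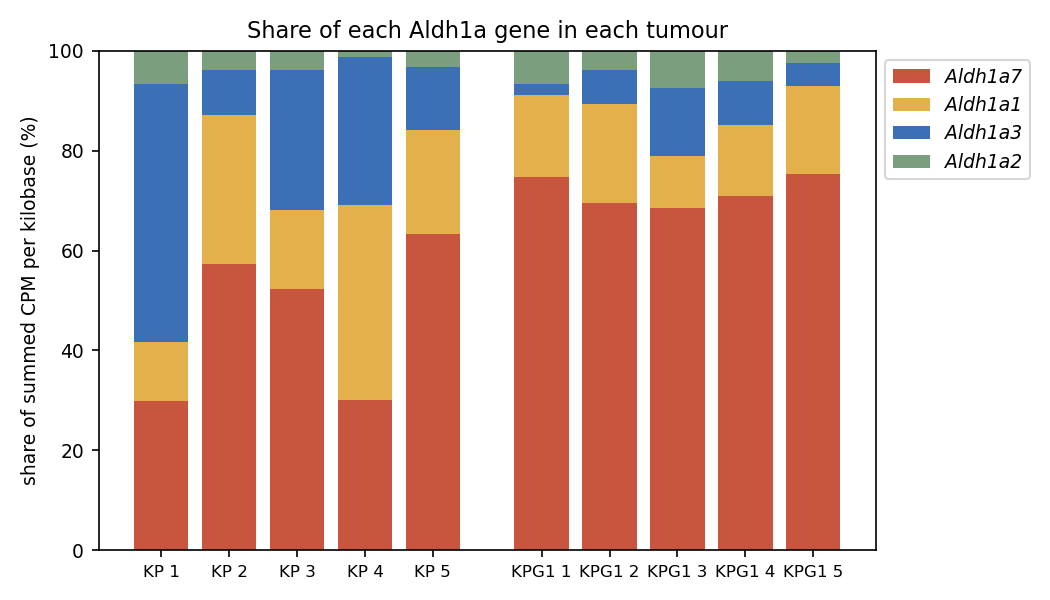
Share of Aldh1a7, Aldh1a1, Aldh1a3 and Aldh1a2 in their summed CPM per kilobase of exon, in percent, with 1 bar per tumour. The Aldh1a7 part is between 29.8% and 63.4% in KP and between 68.4% and 75.3% in KPG1, and the Aldh1a3 part reaches 51.7% in KP 1. With the length of the longest principal transcript the Aldh1a7 part would be smaller.

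The fitted differences of the 3 retinoic acid receptors were small, at most 0.19 in size on the log2 scale. Rara, the most widely expressed receptor of the family, stood at 22.8, 19.6, 26.8, 21.0 and 20.6 CPM in KP 1 to KP 5 and at 16.8, 20.6, 22.1, 20.5 and 17.4 CPM in KPG1 1 to KPG1 5. KPG1 1 and KPG1 5 lay below every KP tumour. The log2 difference was -0.19 ± 0.14 (SE), with an interval from -0.49 to 0.11 and an adjusted p of 0.626 (limma).

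Rarg, the receptor best known from skin and other epithelia, ran from 50.3 to 86.4 CPM in KP and from 57.2 to 85.3 CPM in KPG1. The KPG1 range lay inside that of KP, and the log2 difference was 0.052 ± 0.17 (SE), with an interval from -0.31 to 0.41 and an adjusted p of 0.929 (limma). Rarb, the receptor whose own promoter is shown above, ran from 1.67 to 4.18 CPM in KP and from 2.10 to 4.33 CPM in KPG1. The fitted difference was 0.086 ± 0.31 on the log2 scale (SE), with an interval from -0.60 to 0.77 and an adjusted p of 0.938 (limma), and a change of about 1.5-fold either way lies within that interval. For Rara and Rarg the intervals exclude such a change in both directions.

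The other genes of the pathway are given by their role, from lists drawn up from general knowledge. Earlier results of these tumours were known when the lists were chosen. Their counts of genes, shares and medians are therefore a description and not evidence. At the adjusted threshold 0 genes of each of these lists passed in either direction (limma-voom), and of the 3 genes with the smallest unadjusted p of each list those reported here are named. Genes that take up or bind retinoids, 12 tested of 13, were fitted higher in 4 cases and lower in 8, with a median log2 difference of -0.22 and 0 at an unadjusted p under 0.05. Stra6, the membrane receptor for retinol carried by its binding protein, was at -1.38 ± 0.67 (SE, adjusted p = 0.460, limma). Rbp2, a cellular retinol-binding protein best known from the intestine, was at -2.23 ± 1.25 (SE, adjusted p = 0.521, limma).

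Storage and release were covered by 9 tested genes of 10, with 4 fitted higher, 5 lower, and a median of -0.29. Bco1, which cleaves beta-carotene into retinaldehyde, held 419, 172, 195, 535 and 312 counts in KP 1 to KP 5 and 64, 144, 97, 148 and 131 counts in KPG1 1 to KPG1 5. Every KPG1 tumour lay below every KP tumour, while in all other pathway genes tested and the 9 members the groups overlapped; 2.81% of all genes tested had groups without overlap, so 1 such gene among these lists is not more than that share. The log2 difference of Bco1 was -1.50 ± 0.36 (SE), with an unadjusted p of 0.00136 and an adjusted p of 0.147 (limma). Pnpla2, a triglyceride lipase, was at -0.40 ± 0.21 (SE, adjusted p = 0.491, limma), and Bco2, the carotenoid oxygenase of mitochondria, at -0.66 ± 0.44 (SE, adjusted p = 0.598, limma).

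The list of other enzymes that oxidise retinol or reduce retinaldehyde had 12 tested genes of 19, 6 fitted higher and 6 lower, with a median of 0.005. Dhrs9, a dehydrogenase that can oxidise retinol, was at -0.93 ± 0.40 (SE), the 1 gene of the list with an unadjusted p under 0.05 (0.0393, adjusted p = 0.401, limma). Dhrs4, which reduces retinaldehyde, was at 0.27 ± 0.14 (SE, adjusted p = 0.502, limma), and Rdh13 at -0.21 ± 0.13 (SE, adjusted p = 0.547, limma).

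Retinoic acid clearance was the list with the widest differences. Of its 5 genes 3 could be tested, all 3 were fitted lower in KPG1, and 2 had an unadjusted p under 0.05, beside 11.6% of all genes. The median SD within groups of these 3 genes was 1.09, beside 0.350 over all genes tested. With 3 genes, from a list chosen with earlier results known, this is a description and not evidence. Cyp26b1, a main enzyme of retinoic acid breakdown and itself a known target of the receptors, held 253, 293, 226, 108 and 176 counts in KP 1 to KP 5 and 99, 187, 35, 27 and 48 counts in KPG1 1 to KPG1 5. KPG1 2 lay inside the KP range and the other 4 KPG1 tumours lay below it in counts. The log2 difference of Cyp26b1 was -1.72 ± 0.51 (SE), with an unadjusted p of 0.00563 and an adjusted p of 0.236 (limma).

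Cyp2s1, an epithelial cytochrome that can also oxidise retinoic acid, held 2877, 4573, 1690, 19538 and 6715 counts in KP 1 to KP 5 and 675, 3007, 2028, 1391 and 1342 counts in KPG1 1 to KPG1 5. KP 4, the tumour highest in Aldh1a1, was also highest in Cyp2s1. The log2 difference was -1.77 ± 0.59 (SE), with an unadjusted p of 0.0119 and an adjusted p of 0.287 (limma). Ugt1a7c, a glucuronosyltransferase, was at -1.28 ± 0.61 (SE, adjusted p = 0.452, limma). Cyp26a1 and Cyp26c1 reached at most 16 and 3 counts in a library and were not tested.

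Partner receptors, the RXR and PPAR families, were all tested, with 3 of 6 fitted higher, a median of 0.10 and 0 at an unadjusted p under 0.05. Ppara was at 0.47 ± 0.24 (SE, adjusted p = 0.478, limma), Rxrb at 0.21 ± 0.13 (SE, adjusted p = 0.548, limma) and Pparg at -0.37 ± 0.23 (SE, adjusted p = 0.562, limma). Among 10 cofactors 6 were fitted higher, with a median of 0.14 and 0 at an unadjusted p under 0.05. The smallest p-values were those of the acetyltransferase gene Crebbp at -0.29 ± 0.18 (SE, adjusted p = 0.568, limma), of the corepressor Nrip1 at -0.35 ± 0.22 (SE, adjusted p = 0.568, limma) and of the coactivator Ncoa2 at 0.18 ± 0.13 (SE, adjusted p = 0.637, limma).

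Known targets of retinoic acid, 18 tested of 23, were fitted higher in 13 cases and lower in 5, beside 52.7% higher among all genes. The median log2 difference was 0.14, and 1 gene in each direction had an unadjusted p under 0.05, which is 11.1% of the list beside 11.6% of all genes. Hoxa5, a lung patterning gene of the mesenchyme, held 91, 94, 145, 75 and 74 counts in KP 1 to KP 5 and 263, 211, 173, 144 and 142 counts in KPG1 1 to KPG1 5. Its log2 difference was 0.94 ± 0.27 (SE), with an unadjusted p of 0.00488 and an adjusted p of 0.234 (limma), and the fibroblast markers were fitted higher as well. The gene in the other direction was Cyp26b1, described above, and the third smallest p was that of Stra6. Rarb, whose values are uncertain, is in this list too and is 1 of the 13, at a difference of 0.086. The 13 also include genes with at most 55 counts in any library.

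**Figure D5:**
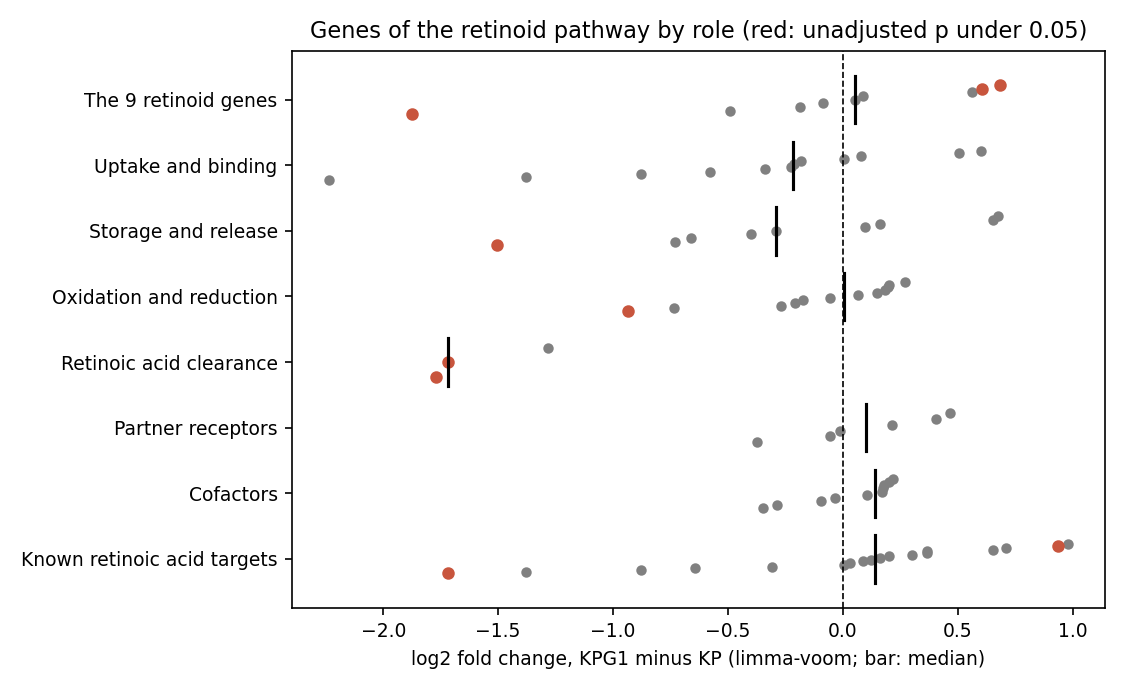
Fitted log2 difference, KPG1 minus KP, of each tested gene, in rows by role; a bar marks the median of the row and red marks an unadjusted p under 0.05. The 3 tested genes of retinoic acid clearance all lie left of 0, around a median of -1.72, while the medians of the other rows lie between -0.29 and 0.14.

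As a description, the genes most like each member were taken by Pearson's r of log2 CPM over the 10 tumours, which share genotype, depth and tissue makeup. Aldh1a3 ran closest to Omp (r = 0.967), Avil (0.963) and Slc4a11 (0.962), which code for the olfactory marker protein, the actin-binding protein advillin and a membrane transporter. Retsat ran closest to Kcnj2 (0.960), Dcun1d2 (0.957) and Fli1 (0.955), of which Kcnj2 is a potassium channel and Fli1 an ETS factor of endothelial and blood cells. Aldh1a7 was nearest to Bscl2 (0.929), which codes for the lipid droplet protein seipin, to the chromatin remodeller Smarca2 (0.928) and to Ergic2 (0.914). Aldh1a1 had the lowest values of the members, with the drug efflux pump Abcb1a (0.869), Tmem258 (0.863) and Gsto1 (0.861). Aldh1a2 was nearest to Abcd4 (0.971), Pdzrn3 (0.921) and Ppp1r1b (0.910), and Rdh10 to Oxr1 (0.934), the kinase gene Prkcd (0.933) and Rpap3 (0.918).

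Among the receptors, Rara was nearest to the interleukin-1 receptor antagonist gene Il1rn (0.927), 1700017B05Rik (0.926) and Clip2 (0.919). Rarb was nearest to Cnot1 (0.952), Rif1 (0.939) and 2310057M21Rik (0.915), and Rarg to Stub1 (0.934), Mrpl2 (0.921) and Daxx (0.919). Among the members themselves, Aldh1a3 ran opposite to Retsat (r = -0.721) and to Aldh1a7 (r = -0.652) and along with Rara (r = 0.742), while Retsat and Aldh1a7 ran together (r = 0.584). These values hold the difference between genotypes as well as the spread within them, and with 10 tumours no weight is placed on them.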

How the data were processed

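Counts of whole reads per gene, deposited by the authors on build mm10 without normalization, were analysed for 5 KP and 5 KPG1 tumours, grouped by sample title. Per the labels a stranded mRNA kit was used, and the submitters' processing notes name bcl2fastq 2.17, cutadapt 1.4.2, HISAT2 and featureCounts 1.4.4. The log2 table the authors deposited (TMM and voom) was compared with the counts and not tested. A count rises with gene length and depth, and no label gives a sequencing batch. The members and gene lists were chosen with earlier results of these data known. The alleles of the KP model and 1 gene that the naming rule picked are not reported here.

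Genes were kept by filterByExpr (edgeR 4.0.16), in place of the study's TPM filter, scaled by TMM and fitted with voom and limma 3.58.1 in R 4.3.3, with genotype as the only term and Benjamini-Hochberg adjustment over 16216 genes (threshold 0.05). Log2 CPM used a prior count of 2. Exact tests planned for the Aldh1a share and sum are not printed, because these genes were chosen with results known. Named were the members, Slc2a1, the 3 smallest unadjusted p of each list and the 3 genes most correlated with each member (mean log2 CPM of at least 1). Positions and lengths came from GENCODE M21. On simulated counts of 16043 genes limma-voom recovered 35% of 2-fold and 84% of 4-fold changes with 3.3% of its calls false, and DESeq2 1.42.0 made 21.0% false calls. Alternatives were edgeR's quasi-likelihood test, DESeq2, other scalings and filters, library weights, sample number, a replicate block and leaving out each library. Transcript length was an alternative chosen after seeing the data.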

Additional observations from a re-analysis of the deposited data

How the results depend on the processing

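Retsat, Aldh1a2, Aldh1a3, Aldh1a7 and Rara kept their direction under all 19 alternatives, 18 for Aldh1a2, which the filter on a mean CPM of 20 removed along with Rarb, with log2 differences of 0.46 to 0.75, 0.31 to 0.86, -2.27 to -1.33, 0.47 to 1.20 and -0.24 to -0.13. Of the 9 members 0 passed the adjusted threshold under every alternative other than DESeq2, which passed 1. The direction turned in the other 4 members. Aldh1a1 went from -0.49 to 0.39 with sample number as a covariate, which largely follows genotype. Rdh10 went to 0.21 with library weights, and without 1 library it ran from -0.31 to 0.085, above 0 without KP 4, KP 5 or KPG1 5. Rarb went to -0.093 with sample number, and without 1 library it ran from -0.12 to 0.23, under 0 without KP 3, KP 5 or KPG1 3. Rarg went to -0.071 with sample number, and without 1 library it ran from -0.052 to 0.13, under 0 without KP 1 or KPG1 2. The sum of Aldh1a1 and Aldh1a7 ran from -0.074 to 0.35 without 1 library, under 0 without KP 1, KP 5 or KPG1 1. The summed log2 level of the 4 Aldh1a genes ran from -0.20 to 0.14 without 1 library, above 0 without KP 3, KP 4, KPG1 2 or KPG1 3, and was -0.34 with no length correction and -0.18 with transcript length, beside -0.016 per kilobase of exon with all libraries. The count of all genes called, 28, moved to 548 with DESeq2, 43 without the filter, 228 with library weights, 8 with sample number and 102 at an adjusted p under 0.1. It ran from 4 to 294 without 1 library, 294 being the count without KP 5. With a replicate block it was 5. The replicate numbers gave no sign of a pairing of tumours. The correlations of same-numbered deviations ran from -0.16 to 0.08, and 1 of 5 numbers correlated best with itself. With 5 tumours a group these correlations cannot exclude a pairing. Slc2a1 passed the threshold with DESeq2 (-1.04), with library weights (-1.13) and without KP 5, and without 1 library it ran from -1.14 to -0.92. The causes of these shifts were not tested. On simulated counts with the spread of these tumours, 35% of 2-fold changes were recovered.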

Other observations

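A few pathway genes that the naming rule left out, chosen after their values were seen, varied more between tumours of one genotype than between genotypes. Stra8, a gene named for its induction by retinoic acid and known from germ cells, held 112, 2, 24, 8 and 1 counts in KP 1 to KP 5 and 0, 697, 1450, 0 and 11 counts in KPG1 1 to KPG1 5. Counts were thus high in KPG1 2 and KPG1 3 and at 0 in KPG1 1 and KPG1 4, where a count of 0 allows up to 3 counts. KP 1 was the highest of the controls. Ttr, the carrier of retinol-binding protein in blood, held 4256, 100, 571, 1095 and 24 counts in KP 1 to KP 5 and 68, 414, 2007, 229 and 307 counts in KPG1 1 to KPG1 5. KP 1 and KPG1 3 were the highest of their groups in both Stra8 and Ttr. Adh7, an alcohol dehydrogenase that can oxidise retinol, held 303, 119, 47, 1730 and 1214 counts in KP 1 to KP 5 and 409, 134, 168, 179 and 260 counts in KPG1 1 to KPG1 5.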
